A study of Mus musculus with 10 samples.

Results

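Deleting RORgt and T-bet together was compared with leaving both intact in innate lymphoid cells (ILCs) of the mouse small intestine, by ATAC-seq, which measures how open chromatin is from where the Tn5 transposase cuts. The RORgt-Tbet-KO mice carried Id2creERT2, tdRFP and loxP-flanked alleles of both the gene for RORgt and Tbx21, the gene for T-bet. Another genotype, RORgt-KO with 2 libraries, carried Id2creERT2, tdRFP and the loxP-flanked gene for RORgt alone, and is used where the added deletion of Tbx21 is described. The Control mice carried Id2creERT2 and tdRFP with neither loxP-flanked allele. All mice were C57BL/6 and were put on a tamoxifen diet weeks before sorting, which switches on the CreERT2 recombinase made from the Id2 gene in every cell that uses that gene. ILCs were sorted from collagenase-digested lamina propria by surface antibodies, and each library came from 1 intestine or from 2 or 3 pooled intestines. The comparison took the 2 RORgt-Tbet-KO and 3 Control libraries, 5 of the 10 in the series, and all 36251 peaks outside the Y chromosome of 36262 in the table. The labels give no measure of how completely either gene was deleted, no age and no sex.

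ILCs are lymphocytes without rearranged antigen receptors that make cytokines soon after stimulation. Group 3 ILCs depend on RORgt, a nuclear receptor, and make IL-17 and IL-22, which guard the gut epithelium, while group 1 ILCs and NK cells depend on T-bet, a T-box factor, and make interferon gamma. Part of the intestinal group 3 ILCs carries both factors and the natural cytotoxicity receptor NKp46, and another part, related to lymphoid tissue inducer (LTi) cells, carries CCR6. Group 2 ILCs depend on GATA3.

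Each peak has 1 deposited value per library, the log2 of a scaled read count, so that 1 unit is a doubling of accessibility. Reads in peaks numbered 4580787 and 5047436 for RORgt-Tbet-KO, and for Control 3381784, 3361390 and 2518233, which gave a median of 64 and 73 reads per peak in RORgt-Tbet-KO and 48, 49 and 39 in Control. RORgt-Tbet-KO was thus sequenced more deeply, and with reads thinned to equal depth limma called 7481 peaks, 3930 higher and 3551 lower, in place of the 8189 given next. Across all peaks the 2 RORgt-Tbet-KO libraries correlated at r = 0.967 and the 3 Control libraries at 0.910 to 0.928, whereas RORgt-Tbet-KO and Control libraries correlated at 0.806 to 0.858. All 8 markers chosen for innate lymphoid cells had a peak, and their summed scaled reads were 10030 to 10046 in RORgt-Tbet-KO and 7559 to 8714 in Control. No peak lay within 50 kb of the T cell genes Cd3g, Cd6, Cd8a, Trac and Foxp3 or of the B cell genes Cd79a, Cd79b and Ms4a1. In sorted populations a smaller number of cells of one type and a less open site in each cell cannot be told apart.

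The limma test called 8189 peaks changed, 22.6% of those tested, at a Benjamini-Hochberg adjusted p under 0.05, of which 4093 (11.3%) were higher and 4096 (11.3%) lower in RORgt-Tbet-KO than in Control. Although the 2 directions were equally frequent, they were not equally large. The median higher peak differed by 1.05 on the log2 scale (2.08-fold) and the median lower peak by -1.47 (2.77-fold). An 8-fold or larger difference was found for 64 higher and 333 lower peaks, and a 4-fold or larger one for 447 higher and 1201 lower peaks. Lower peaks had a median level of 4.80 in RORgt-Tbet-KO and 6.39 in Control, and higher peaks 6.95 in RORgt-Tbet-KO and 5.84 in Control. The median over all peaks was 0.01. Peaks whose libraries did not overlap between the genotypes made up 26.2% of all peaks for higher and 26.3% for lower, and 4075 of the higher and 4078 of the lower calls were among them. Without RORgt-Tbet-KO replicate 1 the calls fell to 3359 and without replicate 2 to 3560, since 1 library then stood for the genotype. Counts for single genes and lists shrank by unequal amounts under these settings, and are given below beside the counts they touch.

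Sequence was read where changed peaks lay over a promoter. Windows of 250 bases before to 50 bases after the start site were taken from RefSeq (GRCm38.p6, printed in the direction of the gene), and 6 short motifs were searched on both strands: AGGTCA, the half-site bound by nuclear receptors such as RORgt; AGGTGTGA, a T-box site; TGANTCA, an AP-1 site; TGTGGTT, a RUNX site; AGATAAG, bound by GATA factors; and CCGGAAGT, an ETS site. The 6 windows below were chosen after their values were seen, to show the letters at genes of the type 3 and NK programmes and at promoters that opened. Capitals mark the motif matches, which do not overlap each other. Il17f (chr1:20784221-20784520, minus strand) and Ncr1 (chr7:4337465-4337764, plus strand, the first of its start sites) hold a nuclear receptor half-site and a RUNX site each, and both promoters were less open in RORgt-Tbet-KO. Cd244a (chr1:171558943-171559242, plus strand) and Ctla2b (chr13:60897398-60897697, minus strand) hold 1 AP-1 site, Sh2d1b1 (chr1:170277068-170277367, plus strand) holds 2, and Lime1 (chr2:181380985-181381284, plus strand) holds a T-box site. These last 4 promoters were more open in RORgt-Tbet-KO.
Il17f: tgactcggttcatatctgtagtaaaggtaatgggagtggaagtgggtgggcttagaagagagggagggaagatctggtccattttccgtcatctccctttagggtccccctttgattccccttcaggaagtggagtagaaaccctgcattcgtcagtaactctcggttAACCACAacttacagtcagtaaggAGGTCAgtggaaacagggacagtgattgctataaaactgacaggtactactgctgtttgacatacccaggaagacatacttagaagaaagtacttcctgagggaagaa
Ncr1: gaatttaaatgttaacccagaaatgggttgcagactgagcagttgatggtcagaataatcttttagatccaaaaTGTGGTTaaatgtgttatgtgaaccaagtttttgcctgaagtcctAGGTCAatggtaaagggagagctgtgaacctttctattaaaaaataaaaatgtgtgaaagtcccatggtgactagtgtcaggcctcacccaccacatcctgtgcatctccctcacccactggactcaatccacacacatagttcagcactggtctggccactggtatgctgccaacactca
Cd244a: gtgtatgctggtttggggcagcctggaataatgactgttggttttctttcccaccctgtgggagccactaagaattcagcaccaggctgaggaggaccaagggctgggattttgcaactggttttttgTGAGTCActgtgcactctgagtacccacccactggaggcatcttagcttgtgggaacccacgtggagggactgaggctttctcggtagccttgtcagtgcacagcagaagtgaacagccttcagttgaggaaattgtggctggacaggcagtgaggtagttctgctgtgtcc
Sh2d1b1: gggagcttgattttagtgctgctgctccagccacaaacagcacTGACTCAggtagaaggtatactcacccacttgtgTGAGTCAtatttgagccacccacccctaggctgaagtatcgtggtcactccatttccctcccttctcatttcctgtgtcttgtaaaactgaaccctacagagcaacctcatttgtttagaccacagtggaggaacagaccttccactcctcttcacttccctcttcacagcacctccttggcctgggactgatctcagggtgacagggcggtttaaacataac
Ctla2b: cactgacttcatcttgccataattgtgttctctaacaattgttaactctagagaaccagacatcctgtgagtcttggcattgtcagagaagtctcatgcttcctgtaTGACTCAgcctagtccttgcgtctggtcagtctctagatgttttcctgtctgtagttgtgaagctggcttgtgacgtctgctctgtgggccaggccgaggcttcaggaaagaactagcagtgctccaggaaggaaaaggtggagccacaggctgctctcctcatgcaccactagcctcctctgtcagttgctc
Lime1: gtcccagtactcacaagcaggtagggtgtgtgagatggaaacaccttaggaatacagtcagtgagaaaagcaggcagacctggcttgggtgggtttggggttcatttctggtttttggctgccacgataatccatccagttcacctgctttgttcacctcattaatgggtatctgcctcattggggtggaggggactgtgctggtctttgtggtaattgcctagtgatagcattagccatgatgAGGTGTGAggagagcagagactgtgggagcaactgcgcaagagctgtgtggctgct

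The peak over the Il17f promoter, which starts the gene for the cytokine IL-17F, stood at 6.29 and 6.33 in RORgt-Tbet-KO against 7.77, 8.07 and 7.64 in Control, a difference of -1.52 ± 0.27 (SE; limma, adjusted p = 0.000151). At Ncr1, the gene for NKp46, the promoter peak read 6.67 and 6.59 in RORgt-Tbet-KO against 7.80, 7.68 and 7.26 in Control (-0.95 ± 0.21, adjusted p = 0.00182). Both promoters were thus less open in each RORgt-Tbet-KO library than in any Control library. The opposite order held for the promoter of Sh2d1b1, an adaptor of SLAM-family receptors in NK cells, at 8.11 and 8.11 in RORgt-Tbet-KO against 6.99, 6.97 and 6.89 in Control (1.16 ± 0.19, adjusted p = 6.42e-05). Cd244a, the gene for the SLAM-family receptor 2B4, had 6.65 and 6.64 in RORgt-Tbet-KO against 5.07, 5.42 and 5.20 in Control (1.42 ± 0.29, adjusted p = 0.000802). Lime1, which codes for a membrane adaptor of lymphocyte signalling, had 9.82 and 9.98 in RORgt-Tbet-KO against 8.70, 8.36 and 8.75 in Control (1.30 ± 0.19, adjusted p = 1.75e-05). At Ctla2b, a gene for a cysteine protease inhibitor of activated lymphocytes, the values were 8.18 and 7.86 in RORgt-Tbet-KO against 6.64, 7.07 and 5.92 in Control (1.48 ± 0.25, adjusted p = 7.72e-05). None of these libraries overlapped between the genotypes.

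Motif matches were then counted over all promoter windows. The AP-1 letters lay in 7.43% of the 619 promoter windows under a higher peak, 3.77% of the 504 under a lower peak and 4.07% of the 8992 under an unchanged peak, against 6.99% of all 21263 windows. The nuclear receptor half-site was found in 11.8% of windows under higher and 13.5% under lower peaks, 10.9% under unchanged peaks and 14.7% of all windows. T-box letters were rare, in 1.13% of windows under higher and 0.397% under lower peaks, against 0.790% under unchanged peaks and 1.15% of all. RUNX letters were in 3.88% and GATA letters in 1.29% of windows under higher peaks, against 4.37% and 1.39% under lower peaks, with 4.71% and 2.64% over all windows. ETS letters were less frequent under changed than under unchanged peaks, at 7.59% under higher, 4.56% under lower and 10.1% under unchanged peaks, with 5.15% over all windows. These shares are descriptions of letters and not of bound factors.

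Tbx21 itself had 3 peaks within 50 kb, and none was lower in RORgt-Tbet-KO. The sources used here do not say which exons the loxP sites flank, so these peaks do not check the deletion. The largest gain, inside the gene at chr11:97112532-97113091, read 6.69 and 6.92 in RORgt-Tbet-KO against 5.07, 5.07 and 5.0 in Control (1.76 ± 0.29, limma, adjusted p = 6.07e-05) and passed in all 17 other settings. The weakest peak, also inside the gene, did not pass the test (0.36, adjusted p = 0.711). A peak between genes, at chr11:97123544-97123936, had 5.84 and 6.22 in RORgt-Tbet-KO against 5.33, 4.28 and 5.32 in Control (1.06 ± 0.36, adjusted p = 0.0315). That call was lost without Control replicate 2 (adjusted p = 0.166) and without RORgt-Tbet-KO replicate 1 (0.0927) or 2 (0.279).

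The largest peaks were ranked among called peaks with a mean level above the median and libraries apart, 1 per named gene, so that weaker peaks with larger differences, such as 1 of Il12rb2 (3.53), were left out. In this ranking the largest increase lay inside Rcsd1, the gene for a regulator of actin capping, at chr1:165679916-165680570. Its level was 10.37 and 10.50 in RORgt-Tbet-KO against 7.33, 6.88 and 7.03 in Control, from 1410 and 1733 reads against 124, 91 and 82, a 10.3-fold difference (3.36 ± 0.17, limma, adjusted p = 2.39e-13). The next single-copy gene was Ppp2r5c, a regulatory subunit of protein phosphatase PP2A, with 8.74 and 8.84 in RORgt-Tbet-KO against 6.07, 6.23 and 5.72 in Control (2.78 ± 0.22, adjusted p = 1.97e-09). Sytl2, which tethers secretory granules to the membrane, followed at 7.70 and 7.57 in RORgt-Tbet-KO against 4.62, 4.90 and 5.20 in Control (2.73 ± 0.24, adjusted p = 1.06e-08). Each was more open in both RORgt-Tbet-KO libraries than in all Control libraries, which the ranking required. The other 7 of the 10 largest increases were at Zfp51, Ccdc43, Eipr1, Megf10, Gng12, Mbd2 and Susd6, with differences of 2.23 to 3.02. Zfp51 belongs to a zinc finger family with near-identical copies, so its reads are uncertain.

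Decreases reached further. A peak inside Serpinb7, a serine protease inhibitor gene, at chr1:107428574-107429186 read 3.23 and 4.39 in RORgt-Tbet-KO against 8.14, 8.49 and 7.79 in Control, a 20.1-fold loss (-4.33 ± 0.32, limma, adjusted p = 9.26e-10). Ptprk, a receptor tyrosine phosphatase, had 3.08 and 4.27 in RORgt-Tbet-KO against 7.97, 8.42 and 7.58 in Control (-4.32 ± 0.43, adjusted p = 5.44e-08). A peak near Cdc73, a subunit of the PAF1 transcription complex, had 4.56 and 3.99 in RORgt-Tbet-KO against 8.38, 8.52 and 7.83 in Control (-3.97 ± 0.33, adjusted p = 4.18e-09). All 3 sites were strongly open in every Control library and near the lower end of the scale in both RORgt-Tbet-KO libraries. The remaining 7 of the 10 largest decreases, of -3.60 to -4.32, included peaks nearest to Ear14, Galnt14, ccdc198, Bicd1, Olfr175 and Rhoj, of which Ear14 and Olfr175 belong to multigene families with similar copies. None of the 20 largest differences lost its call when any single library was left out.

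**Figure D1:**
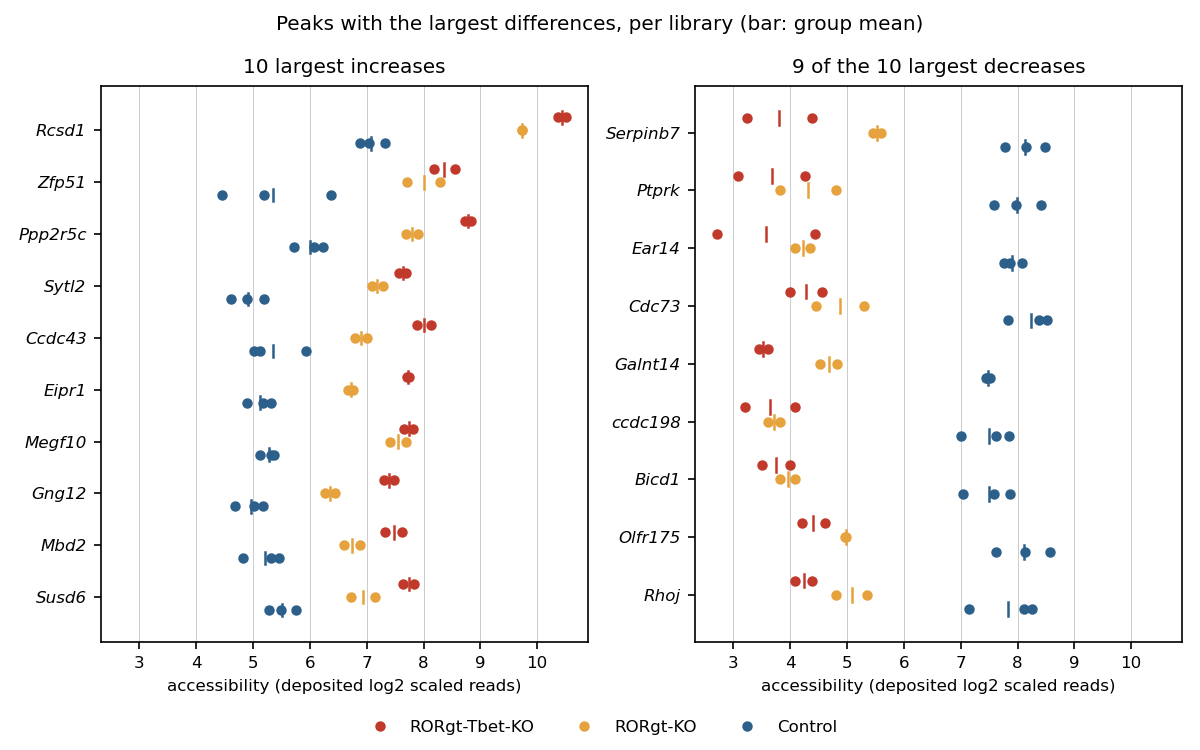
Accessibility (deposited log2 scaled reads, horizontal axis) at the 10 largest increases and at 9 of the 10 largest decreases, with 1 point per RORgt-Tbet-KO, RORgt-KO and Control library and a bar at each group mean. The RORgt-Tbet-KO and Control points are apart on every line because the peaks were chosen so. They run from 10.37 and 10.50 against 6.88 to 7.33 at Rcsd1 to 3.23 and 4.39 against 7.79 to 8.49 at Serpinb7.

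Changed peaks were least frequent at the ends of genes, and losses were most frequent far from genes. Within 1 kb of either end of a protein-coding gene, 6.14% of 10850 peaks were higher and 6.06% lower. Inside genes 15% of 14157 peaks were higher and 11.7% lower, and between genes, 1 to 50 kb from the nearest, 13.1% of 7572 were higher and 12.7% lower. Beyond 50 kb from any gene the balance turned, with 8.58% of 3672 peaks higher and 22.5% lower and a median difference of -0.30, against 0.01 over all peaks. Such remote peaks made up 20.1% of all lower calls, 7.70% of higher calls and 9.02% of the peaks without a call. By the same ranking the largest remote loss, at chr2:78548661-78549484, had 4.50 and 4.79 in RORgt-Tbet-KO against 8.74, 8.67 and 7.90 in Control (-3.79 ± 0.33, limma, adjusted p = 6.56e-09). The largest remote gain, at chr2:48328209-48328633, had 7.56 and 7.39 in RORgt-Tbet-KO against 5.69, 5.28 and 4.58 in Control (2.29 ± 0.27, adjusted p = 8.5e-07). The ranking admitted only sites whose libraries did not overlap. In RORgt-KO against the same Control libraries, 5.28% of remote peaks were higher and 15.1% lower.

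Chromosomes differed along the same line. Gene-rich chromosome 11 had 15.5% of its peaks higher and 5.47% lower (median 0.26), and chromosome 17 had 14.5% higher and 8.20% lower. Gene-poor chromosomes 3 and X had the reverse, with 7.32% higher and 16.2% lower on chromosome 3 and 3.19% higher and 12.6% lower on X (median -0.22). Chromosome 12, with 5.66 genes per Mb like X, was near balance, at 10.6% higher and 11.3% lower. The sex of the mice is not given, so a difference in sex cannot be told apart from the genotype on X. Over the 20 chromosomes, the number of protein-coding genes per Mb ranked with the share of higher peaks at a Spearman rho of 0.77 and with the share of lower peaks at -0.81. These rank correlations are descriptions, because all chromosomes share the same 5 libraries and differ in base composition, which was not read here.

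**Figure D2:**
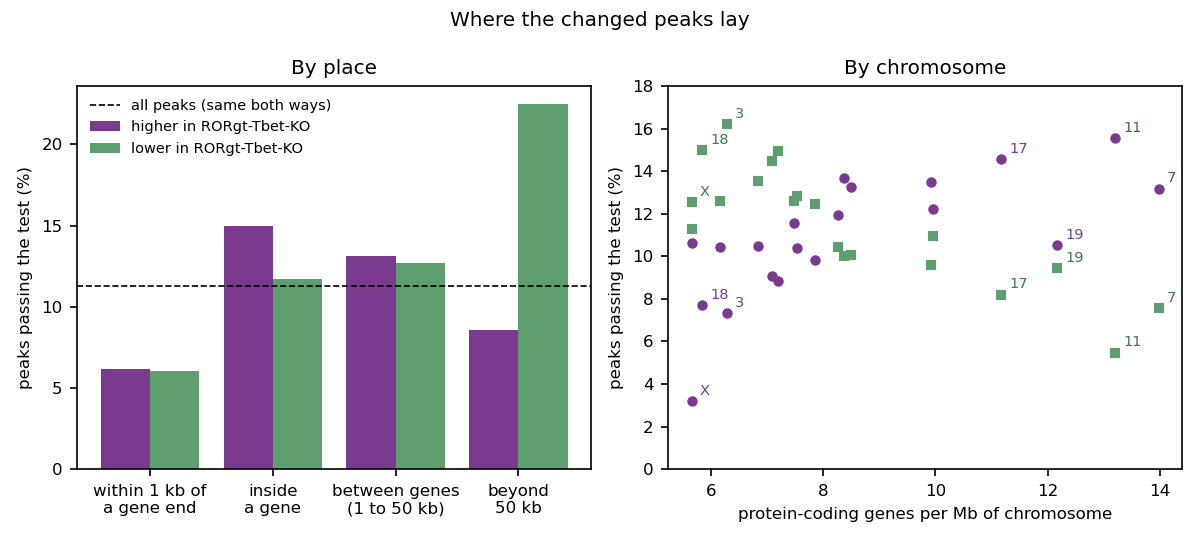
Percent of peaks higher or lower in RORgt-Tbet-KO than in Control (vertical axes) by place relative to protein-coding genes (left) and for each of the 20 chromosomes against its genes per Mb (right). Lower peaks stand at 22.5% beyond 50 kb from genes and at 6.06% at gene ends, and the 2 shares run in opposite directions over chromosomes.

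Over promoter windows, 6.01% of 8173 peaks were higher and 5.44% lower. Tor1a, an endoplasmic reticulum ATPase gene, had the largest gain there by this ranking, 7.99 and 8.30 in RORgt-Tbet-KO against 5.54, 6.18 and 6.94 in Control (1.92 ± 0.26, limma, adjusted p = 4.76e-06). A start site inside Grb2, the adaptor that links receptor tyrosine kinases to Ras, had 7.08 and 7.42 in RORgt-Tbet-KO against 5.33, 5.54 and 5.53 in Control (1.78 ± 0.25, adjusted p = 9.57e-06). Losses at promoters included several genes known outside lymphocytes. Unc5c, a netrin receptor gene, had 6.30 and 6.36 in RORgt-Tbet-KO against 8.56, 8.33 and 8.31 in Control (-2.07 ± 0.22, adjusted p = 1.76e-07), and Ednrb, an endothelin receptor gene, had 7.01 and 6.51 in RORgt-Tbet-KO against 8.40, 9.04 and 8.52 in Control (-1.89 ± 0.23, adjusted p = 1.03e-06). Both were less open in each RORgt-Tbet-KO library, which the ranking required. Promoters of Dner (-2.29), a Notch ligand gene, Lpcat2 (-1.93), an enzyme of lipid mediator synthesis, Siglecf (-1.89), a sialic acid receptor of eosinophils, and Cxcl3 (-1.78), a neutrophil-attracting chemokine, were lower as well.

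The type 3 genes changed in both directions, with losses at the IL-17 and IL-22 cytokine genes and gains at several receptors and other cytokines. Of 16 type 3 genes with a peak, 6 had only lower peaks (Il17a, Il17f, Il22, Ccl20, Csf2 and Cd93), 6 only higher ones (Il23r, Il18r1, Lif, Il2, Tnf and Batf), 2 had both (Il1r1 and Maf), and Il17re and Il22ra2 had no call, where 33.4% of all genes had a changed peak (14.4% only lower, 16.0% only higher and 2.93% both). By peak, 20 of 84 were higher and 13 lower, with a median of 0.24 against 0.01 over all peaks, and without RORgt-Tbet-KO replicate 1 or 2 there were 7 and 9 in each direction. The housekeeping list had a median of 0.23, so a median of this size was not particular to the type 3 list. A gene with more peaks is more likely to hold a call. The 16 type 3 genes had 84 peaks, where all 13037 genes had 32579, so their shares by gene are not on one footing. Along the neighbouring Il17a and Il17f genes, 6 of 8 peaks were lower and none higher. The most stable were the Il17f promoter given above and the peak at chr1:20685830-20686273, 44632 bp from Il17a, which read 2.5 and 3.20 in RORgt-Tbet-KO against 6.64, 6.68 and 6.51 in Control (-3.76 ± 0.45, limma, adjusted p = 9.59e-07). The other 4 were smaller, at -0.65 to -1.33, and each of them lost its call without at least 1 library: without either RORgt-Tbet-KO replicate the neighbouring genes kept 3 lower peaks.

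Il22, the gene for the cytokine that acts on epithelium, had 1 lower peak of 4, at chr10:118190146-118190694. It read 5.08 and 5.47 in RORgt-Tbet-KO against 6.83, 7.0 and 6.56 in Control (-1.52 ± 0.37, limma, adjusted p = 0.00346), and without RORgt-Tbet-KO replicate 1 the adjusted p was 0.0799. Il23r, the receptor for IL-23, which drives these cytokines, moved the other way. Its peak at chr6:67459380-67459797 had 7.49 and 7.43 in RORgt-Tbet-KO against 6.15, 5.23 and 6.07 in Control (1.64 ± 0.27, adjusted p = 7.15e-05), and 3 of its 10 peaks were higher, of which 1 was called without RORgt-Tbet-KO replicate 1. Lif, the gene for leukaemia inhibitory factor, had 3 of 7 peaks higher, by 1.17 to 1.46. Il1r1, the IL-1 receptor gene, had 5 of 14 peaks higher and 1 lower, and without RORgt-Tbet-KO replicate 1 it had 2 higher and none lower. The lower one, inside the gene at chr1:40279247-40279575, read 3.82 and 4.95 in RORgt-Tbet-KO against 6.48, 6.18 and 6.61 in Control (-2.04 ± 0.41, adjusted p = 0.000674). Gains and losses thus lay within the same gene, and the libraries of the 2 genotypes did not overlap at that peak.

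The type 1 and natural cytotoxicity list held genes with gains and genes with losses. Among its 27 genes with a peak, gains alone were found at 11 (Tbx21, Il12rb2, Il18rap, Stat4, Txk, Prf1, Gzmb, Fasl, Nkg7, Xcl1 and Ccl5), losses alone at 8 (Ncr1, Klrc1, Klrk1, Klre1, Cd226, Itga1, Itga2 and Cxcr3), and no call at 8, among them Ifng, Eomes, Ccl3 and Ccl4. By peak 27 of 113 (23.9%) were higher and 11 (9.73%) lower, against 11.3% of all peaks each way, so the share of losses was under that of all peaks. Without RORgt-Tbet-KO replicate 1 or 2 the higher peaks numbered 15 and 16 and the lower ones 8 and 6. The median of 0.02 became -0.01 when library-size or voom scaling was used. The genes with losses mainly code for surface receptors: Klrc1 codes for NKG2A, an inhibitory NK receptor of a family with similar copies, and Klrk1 for NKG2D, an activating one. Klrc1 had 6.91 and 6.75 in RORgt-Tbet-KO against 8.65, 8.53 and 8.17 in Control (-1.62 ± 0.24, limma, adjusted p = 1.51e-05). Klrk1 had 5.87 and 5.65 in RORgt-Tbet-KO against 7.02, 6.75 and 6.43 in Control (-0.97 ± 0.28, adjusted p = 0.0121), a call lost without Control replicate 1 (adjusted p = 0.0603) or RORgt-Tbet-KO replicate 1 (0.0635) or 2 (0.146). Itga1, the gene for integrin CD49a of tissue-resident group 1 ILCs, had 2 of 8 peaks lower, one of them at 5.77 and 5.36 in RORgt-Tbet-KO against 6.75, 7.24 and 6.74 in Control (-1.35 ± 0.25, adjusted p = 0.000247).

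Among the genes with gains were Prf1, Gzmb and Fasl, which code for cytotoxic effectors, and Il12rb2 and Stat4, which act in IL-12 signalling. Prf1, the gene for the pore-forming protein perforin, had all 3 of its peaks higher, by 0.72 to 2.19. Its strongest peak, at chr10:61305914-61306610, read 8.95 and 8.84 in RORgt-Tbet-KO against 7.80, 7.59 and 7.65 in Control (1.21 ± 0.19, limma, adjusted p = 3.06e-05). Fasl, the gene for the death ligand FasL, had 6 of 9 peaks higher, of which 3 and 2 were called without RORgt-Tbet-KO replicate 1 or 2. Il12rb2, a subunit of the IL-12 receptor, had 2 of 5 peaks higher, the first at 6.63 and 6.08 in RORgt-Tbet-KO against 4.07, 4.18 and 2.68 in Control (2.71 ± 0.36, adjusted p = 3.36e-06). Each of these peaks was more open in both RORgt-Tbet-KO libraries.

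Adding the deletion of Tbx21 to that of RORgt was read directly, as RORgt-Tbet-KO against RORgt-KO, where limma called 415 peaks (1.14%), 65 higher (0.179%) and 350 lower (0.965%). Several of the lower ones were at genes of the type 1 programme, and at 1 peak each of Il12rb2 and Ifng the RORgt-Tbet-KO libraries were near the Control level while the RORgt-KO libraries were above it. That peak of Il12rb2, another than the 2 higher ones above, at chr6:67347988-67348479, had 4.16 and 4.50 in RORgt-Tbet-KO, 6.99 and 6.90 in RORgt-KO and 4.62, 4.69 and 4.48 in Control. The difference was -2.61 ± 0.30 from RORgt-KO (adjusted p = 9.67e-06) and -0.27 from Control (adjusted p = 0.524). Cxcr3, the receptor for interferon-induced chemokines, had 5.37 and 5.30 in RORgt-Tbet-KO, 7.14 and 7.59 in RORgt-KO and 6.18, 6.42 and 6.26 in Control. It was lower by -2.03 ± 0.25 than in RORgt-KO (adjusted p = 1.8e-05) and by -0.95 ± 0.23 than in Control (adjusted p = 0.00316), the second call being lost without RORgt-Tbet-KO replicate 2 (adjusted p = 0.0501).

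A peak over the start site of Ifng, the gene for interferon gamma, had 5.04 and 4.39 in RORgt-Tbet-KO, 6.19 and 5.94 in RORgt-KO and 5.02, 4.96 and 5.0 in Control, with -1.35 from RORgt-KO (limma, adjusted p = 0.0349) and -0.28 from Control (adjusted p = 0.554). Nkg7, a granule protein gene of cytotoxic lymphocytes, had 7.03 and 7.03 in RORgt-Tbet-KO, 8.14 and 8.02 in RORgt-KO and 5.83, 5.62 and 6.48 in Control, so that it was below RORgt-KO (-1.05 ± 0.24, adjusted p = 0.0199) and above Control (1.05 ± 0.22, adjusted p = 0.000803). Ccl3, Cd226, Itga1 and Xcl1 also had a peak lower than in RORgt-KO, which made 8 of the 27 genes of the list. Outside it, single peaks of Ikzf2 (-2.04), a factor of the Ikaros family, Ets1 (-1.92), Bcl11b (-1.62) and Ctla4 (-1.69) were lower than in RORgt-KO, and Ikzf3 (1.38) and Grap2 (1.40) had peaks that were higher. The peaks of Il12rb2, Cxcr3 and Ikzf2 passed in 16 of 16 other settings for this contrast, with adjusted p up to 0.00816, 0.0196 and 0.0363. That of Ifng passed in 9 of 16 and that of Nkg7 in 10 of 16, and with single libraries left out the number of calls over all peaks was 91 to 204.

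**Figure D3:**
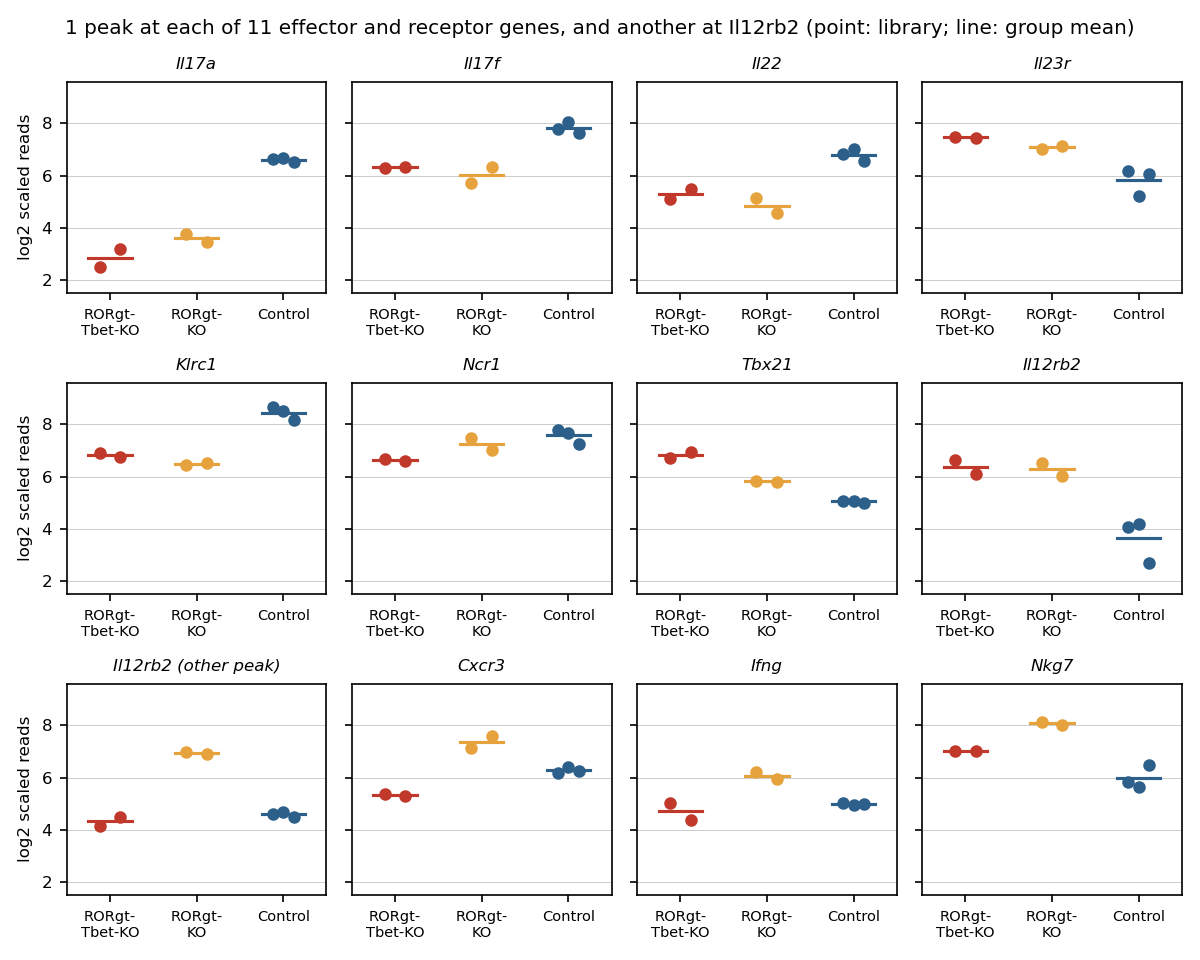
Accessibility (deposited log2 scaled reads, vertical axis) at 1 peak of each of 11 effector and receptor genes and at another Il12rb2 peak, with 1 point per RORgt-Tbet-KO, RORgt-KO and Control library and a line at each group mean. At Cxcr3 and at the other Il12rb2 peak the RORgt-Tbet-KO points, 5.30 to 5.37 and 4.16 to 4.50, lie below those of RORgt-KO.

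The values of the single deletion were set beside those of the double deletion at the called peaks. The median difference from Control of the higher peaks was 1.05 in RORgt-Tbet-KO and 0.64 in RORgt-KO, and of the lower peaks -1.47 in RORgt-Tbet-KO and -1.08 in RORgt-KO. Both comparisons share the 3 Control libraries, and the peaks were chosen by the first of them, so nothing is read from their likeness; over all peaks 12.3% were called in RORgt-KO against Control. A peak that differed from both other genotypes lay near Fam126a, a gene for a scaffold of phosphoinositide synthesis, at chr5:23894015-23894695, with 7.66 and 7.58 in RORgt-Tbet-KO, 5.28 and 4.11 in RORgt-KO and 5.58, 5.46 and 5.38 in Control. It was higher by 2.92 ± 0.33 than in RORgt-KO (limma, adjusted p = 7.82e-06) and by 2.15 ± 0.30 than in Control (adjusted p = 9.5e-06), and the single deletion did not pass the test (-0.78, adjusted p = 0.0971).

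With all libraries kept, higher peaks were more frequent in the list of LTi-like genes (32.9%) than over all peaks (11.3%). Of 15 such genes 9 had only higher peaks (Ccr6, Cxcr5, Ccr7, Cd4, Cd83, Il1rl1, Il2ra, Kit and Ltb), 3 only lower ones (Gpr183, Runx1t1 and Sox4), and 2 both (Tnfsf11 and Tox2). Over all genes 16.0% had only higher peaks, 14.4% only lower ones and 2.93% both. The 15 listed genes had 82 peaks, where 13037 genes had 32579, and a gene with more peaks is more likely to hold a call. Il1rl1 was also in the type 2 list, and its higher peak lay 1275 bp from the start site of Il18r1. By peak 27 of 82 were higher and 7 lower, with a median of 0.42 against 0.01 over all peaks, and without RORgt-Tbet-KO replicate 1 or 2 the higher peaks numbered 4 and 8. Tox2, an HMG-box factor gene, had its clearest gain at chr2:163298799-163299390, with 8.17 and 8.34 in RORgt-Tbet-KO against 6.91, 6.91 and 6.68 in Control (1.42 ± 0.21, limma, adjusted p = 1.3e-05). At Runx1t1, a gene for a transcriptional corepressor, the end of the gene read 4.30 and 4.87 in RORgt-Tbet-KO against 6.88, 6.50 and 6.53 in Control (-2.05 ± 0.33, adjusted p = 4.97e-05). In both cases the libraries of the genotypes were apart.

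The TNF superfamily, which holds the lymphotoxins that LTi cells use to build lymphoid tissue, was mixed. Of 14 genes 4 had only higher, 2 only lower and 2 both kinds of peak, where 16.0% of all genes had only higher, 14.4% only lower and 2.93% both. Higher peaks made up 24.1% of this list and lower ones 7.41%, against 11.3% of all peaks each way. By peak 13 of 54 were higher and 4 lower, and without RORgt-Tbet-KO replicate 1 or 2 there were 4 and 5 higher and 3 lower each time. RANK, the product of Tnfrsf11a, and its ligand, the product of Tnfsf11, each had 1 lower peak, while Tnfsf11 also had 3 of 9 peaks higher, its promoter among them (0.56 ± 0.19, adjusted p = 0.035). Tnfrsf11a had 3.5 and 3.55 in RORgt-Tbet-KO against 6.48, 6.76 and 6.26 in Control (-2.98 ± 0.39, limma, adjusted p = 3.99e-06), and Tnfsf11 had 4.30 and 3.99 in RORgt-Tbet-KO against 6.83, 6.15 and 6.0 in Control (-2.18 ± 0.47, adjusted p = 0.00112). Among gains, Tnfrsf1b, the TNF receptor 2 gene with 3 of 11 peaks higher and 1 lower, had 9.53 and 9.5 in RORgt-Tbet-KO against 8.53, 8.62 and 8.17 in Control (1.07 ± 0.17, adjusted p = 5.41e-05). Each of these peaks separated the 2 genotypes. The type 2 list had 2 genes with only higher and 3 with only lower peaks of 10, and a median of -0.33 over its 28 peaks. Of these 28 peaks 2 (7.14%) were higher and 6 (21.4%) lower, against 11.3% of all peaks each way. Near Gata3 a peak read 4.91 and 5.50 in RORgt-Tbet-KO against 6.85, 6.91 and 6.43 in Control (-1.52 ± 0.27, adjusted p = 0.000192), and near Arg1, an arginase of group 2 ILCs, 5.61 and 4.99 in RORgt-Tbet-KO against 7.15, 7.11 and 6.63 in Control (-1.66 ± 0.32, adjusted p = 0.000356).

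Among the factors that set ILC development, 2 RUNX genes had gains and no losses. Runx3, which is needed for NKp46-positive ILCs, had 8 of 13 peaks higher and none lower, by 0.76 to 1.39, and kept 7 and 5 of them without RORgt-Tbet-KO replicate 1 or 2. Runx1 had 7 of 19 higher and none lower, of which the strongest, at chr16:92810251-92811042, had 8.51 and 8.69 in RORgt-Tbet-KO against 7.26, 7.27 and 7.35 in Control (1.31 ± 0.20, limma, adjusted p = 2.7e-05). Without RORgt-Tbet-KO replicate 1 or 2, Runx1 kept 3 and 2. Rora, the gene for the related nuclear receptor RORa, had 3 of 14 higher, the clearest at 8.16 and 8.03 in RORgt-Tbet-KO against 7.13, 6.99 and 7.31 in Control (0.95 ± 0.20, adjusted p = 0.00114), and kept 1 without either RORgt-Tbet-KO library. Id2, the inhibitor of E proteins that also drives the Cre, had a peak at 7.31 and 7.12 in RORgt-Tbet-KO against 5.99, 6.02 and 5.48 in Control (1.39 ± 0.27, adjusted p = 0.000369). All of these sites were more open in both RORgt-Tbet-KO libraries. In the list of 28 factors 10 had only higher peaks, 4 only lower ones (Gata3, Hlf, Sox4 and Zeb2) and 6 both. By peak 45 of 245 were higher and 25 lower, and without RORgt-Tbet-KO replicate 1 or 2 there were 22 and 19 higher and 9 and 13 lower.

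Gains and losses within one gene were found at Prdm1, the gene for the repressor Blimp-1, with 3 of 18 peaks higher and 3 lower. One gained peak, at chr10:44429271-44429880, read 7.70 and 7.82 in RORgt-Tbet-KO against 6.58, 6.73 and 6.17 in Control (1.27 ± 0.21, limma, adjusted p = 6.48e-05). A lost peak close to it, at chr10:44431509-44431823, read 4.08 and 3.33 in RORgt-Tbet-KO against 5.99, 5.90 and 5.14 in Control (-1.97 ± 0.48, adjusted p = 0.00352; 0.0936 without RORgt-Tbet-KO replicate 2). Tox, an HMG-box factor of ILC precursors, had 1 of 22 peaks higher and 3 lower, the largest loss being at 2.23 and 3.20 in RORgt-Tbet-KO against 5.69, 6.18 and 5.43 in Control (-3.05 ± 0.54, adjusted p = 0.000162).

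AP-1 and signalling genes moved mostly upwards. Peaks at 9 of 15 AP-1 and ATF genes were all higher where they changed (Fos, Fosb, Fosl2, Junb, Batf, Batf3, Atf3, Maff and Mafk), Jdp2 had both kinds, and none had only lower ones. Among all genes 16.0% had only higher peaks. Higher peaks made up 31.7% of this list and lower ones 1.59%, against 11.3% of all peaks each way. By peak 20 of 63 were higher and 1 lower, with a median of 0.42, and without RORgt-Tbet-KO replicate 1 or 2 the higher ones were 10 and 8 of 63, when 1556 and 1562 of all peaks were higher. Jdp2, a repressor that binds AP-1 sites, had 7.85 and 7.92 in RORgt-Tbet-KO against 5.54, 5.54 and 6.03 in Control (2.18 ± 0.23, limma, adjusted p = 1.49e-07), and Batf3 had 8.10 and 8.13 in RORgt-Tbet-KO against 6.58, 6.81 and 7.15 in Control (1.26 ± 0.20, adjusted p = 4.9e-05). Mafk, a small MAF protein gene, had 8.21 and 8.36 in RORgt-Tbet-KO against 7.21, 6.39 and 7.07 in Control (1.39 ± 0.24, adjusted p = 0.000122). At these 3 genes every RORgt-Tbet-KO value was above every Control value. The 16 other immediate early genes had 15 of 82 peaks higher and 6 lower, with 9 genes higher only and 3 lower only, and 6 and 5 higher peaks without RORgt-Tbet-KO replicate 1 or 2. Of those 82 peaks 18.3% were higher and 7.32% lower, against 11.3% of all peaks each way. In that list a peak near Myc had 3.23 and 3.99 in RORgt-Tbet-KO against 6.78, 6.20 and 6.46 in Control (-2.87 ± 0.44, limma, adjusted p = 2.7e-05).

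The list of common gamma chain receptor genes also held related receptor genes, among them Ifngr1, Ifngr2, Il6st, Il10rb and Il27ra. In this receptor list 17 of 50 peaks (34%) were higher and 2 (4%) lower (median 0.46), against 11.3% of all peaks each way. Of its 13 genes 6 had only higher peaks and 2 both kinds (Ifngr1 and Il6st). No call was found at Il2rg, the gene for the common gamma chain itself, or at Il7r, Il9r, Il10rb and Il15ra. Il21r, the IL-21 receptor gene, had 7.81 and 7.83 in RORgt-Tbet-KO against 5.66, 5.76 and 6.35 in Control (1.90 ± 0.24, limma, adjusted p = 1.65e-06), and the neighbouring Il4ra had 7.11 and 7.11 in RORgt-Tbet-KO against 5.58, 5.58 and 5.0 in Control (1.72 ± 0.25, adjusted p = 1.32e-05). In the list of JAK and STAT genes and signalling inhibitors 12 of 80 peaks (15%) were higher, near the 11.3% of all peaks, and 1 (1.25%) was lower. Of its 19 genes 10 were higher only (Stat3, Stat4, Stat5a, Stat5b, Jak1, Jak3, Socs1, Socs3, Cish and Pias1) and Socs2 lower, where 16.0% of all genes were higher only. Stat3, which acts below IL-23 and IL-22, had 7.27 and 7.31 in RORgt-Tbet-KO against 4.28, 5.07 and 5.89 in Control (2.21 ± 0.32, adjusted p = 1.19e-05). Socs3, its feedback inhibitor, had 8.03 and 7.91 in RORgt-Tbet-KO against 6.46, 6.48 and 6.51 in Control (1.49 ± 0.21, adjusted p = 1.03e-05). Both were more open without exception among these libraries, and without RORgt-Tbet-KO replicate 1 or 2 the 2 lists kept 7 and 9, and 3 and 4, higher peaks.

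Genes of lymphocyte receptor signalling had 39 of 153 peaks (25.5%) higher and 9 (5.88%) lower, against 11.3% of all peaks each way. Of 23 genes 13 had only higher peaks, where 16.0% of all genes did. The median of 0.28 in this list was close to the 0.23 of the housekeeping list. A peak inside Cd247, the gene for the CD3 zeta chain used by NK receptors too, was lower, at 5.67 and 5.72 in RORgt-Tbet-KO against 7.38, 7.53 and 7.20 in Control (-1.68 ± 0.30, limma, adjusted p = 0.000212). The NF-kB list had 19 of 97 peaks (19.6%) higher and 8 (8.25%) lower, beside the same 11.3% of all peaks. In it 11 of 18 genes were higher only, while Nfkbiz and Tnip3 were lower. Tnip3, an inhibitor of NF-kB signalling, had 6.42 and 6.59 in RORgt-Tbet-KO against 8.22, 8.62 and 7.92 in Control (-1.75 ± 0.27, adjusted p = 3.04e-05). Nfkbiz, the gene for the nuclear cofactor IkB-zeta, had 2.5 and 2.07 in RORgt-Tbet-KO against 5.23, 6.39 and 5.32 in Control at a peak between genes (-3.37 ± 0.55, adjusted p = 5.46e-05). The genotypes did not overlap at any of these 3 peaks. Without RORgt-Tbet-KO replicate 1 or 2 the higher peaks numbered 14 and 16 in the receptor signalling list and 7 and 6 in the NF-kB list.

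Trafficking genes had changes in both directions. Of 19 chemokine receptor and egress genes 8 had only higher and 5 only lower peaks, and the egress gene S1pr1 was among the lower. S1pr1, the receptor that lets lymphocytes leave tissue, had 8.04 and 8.12 in RORgt-Tbet-KO against 9.29, 9.43 and 9.07 in Control (-1.18 ± 0.18, limma, adjusted p = 3.17e-05). Of 13 integrin genes 5 had only higher and 4 only lower peaks, where 16.0% of all genes had only higher and 14.4% only lower ones. By peak 8 of 62 in the integrin list (12.9%) were higher and 5 (8.06%) lower, near the 11.3% of all peaks each way. The chemokine receptor and egress list had 16 of 79 peaks (20.3%) higher and 5 (6.33%) lower. The 16 higher peaks of the chemokine receptor list became 3 and 1 without RORgt-Tbet-KO replicate 1 or 2.

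Checkpoint and costimulatory genes had 8 of 57 peaks (14.0%) higher and 13 (22.8%) lower, against 11.3% of all peaks each way, and a median of -0.11. There were 8 higher and 8 lower without Control replicate 1, 6 and 6 without Control replicate 2, 3 and 4 without RORgt-Tbet-KO replicate 1, and 5 and 6 without RORgt-Tbet-KO replicate 2. A peak near Ctla4, the gene for an inhibitory receptor, had 3.91 and 3.91 in RORgt-Tbet-KO against 6.69, 6.99 and 6.0 in Control (-2.65 ± 0.46, limma, adjusted p = 0.000138). Near Tnfrsf14, the gene for the receptor HVEM, a peak rose to 5.58 and 5.39 in RORgt-Tbet-KO, against 1.96, 2.37 and 3.48 in Control (2.88 ± 0.47, adjusted p = 6.53e-05). Both were clear of the other genotype in every library. The AHR list, of the ligand-activated factor that sustains group 3 ILCs, had no higher peak and 3 lower of 26 (11.5%), at Tiparp and Arnt2, a share of losses close to the 11.3% of all peaks. Tiparp, a target and repressor of AHR, had 6.06 and 5.79 in RORgt-Tbet-KO against 7.48, 7.87 and 7.03 in Control (-1.54 ± 0.29, adjusted p = 0.000277).

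Clock genes had 10 of 47 peaks higher and 4 lower, and the higher ones numbered 1 and 2 without RORgt-Tbet-KO replicate 1 or 2 and 4 without Control replicate 2. Per3, a period gene of the core clock, had 8.34 and 8.46 in RORgt-Tbet-KO against 6.90, 6.64 and 6.83 in Control (1.61 ± 0.20, limma, adjusted p = 1.33e-06), and a peak inside Arntl, the gene for BMAL1, had 5.69 and 5.89 in RORgt-Tbet-KO against 7.68, 7.11 and 7.14 in Control (-1.51 ± 0.28, adjusted p = 0.000284). Bhlhe40, a repressor that also acts in cytokine-producing lymphocytes, had 7.0 and 6.85 in RORgt-Tbet-KO against 8.83, 8.68 and 8.57 in Control (-1.76 ± 0.20, adjusted p = 3.02e-07). Arntl also had 2 of 4 peaks higher, one over its promoter (0.62 ± 0.17, adjusted p = 0.00912), and Bhlhe40 had 1 of 9 higher and 2 lower. The values of the 3 peaks given in full were apart between the genotypes. In the clock list 21.3% of peaks were higher and 8.51% lower, against 11.3% of all peaks each way. TGF-beta and SMAD genes had 17 of 83 peaks (20.5%) higher and 7 (8.43%) lower. MHC class II genes had 2 higher (8.33%) and 4 lower (16.7%) of 24. Notch pathway genes had 8 of 84 (9.52%) in each direction. Lipid and nutrient metabolism genes had 7 higher (10.9%) and 4 lower (6.25%) of 64, so neither of these last lists passed the share of all peaks. The 17 higher peaks of the TGF-beta list became 7 and 4 without RORgt-Tbet-KO replicate 1 or 2 and 9 without Control replicate 2. In the TGF-beta list Acvr2a, an activin receptor gene, had 3.72 and 4.60 in RORgt-Tbet-KO against 6.82, 7.44 and 6.63 in Control (-2.80 ± 0.42, adjusted p = 2.03e-05). Chromatin remodelling genes (7 higher and 6 lower of 91) and housekeeping genes (2 higher and 1 lower of 31) stayed under the share of all peaks, with medians of 0.05 and 0.23.

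**Figure D4:**
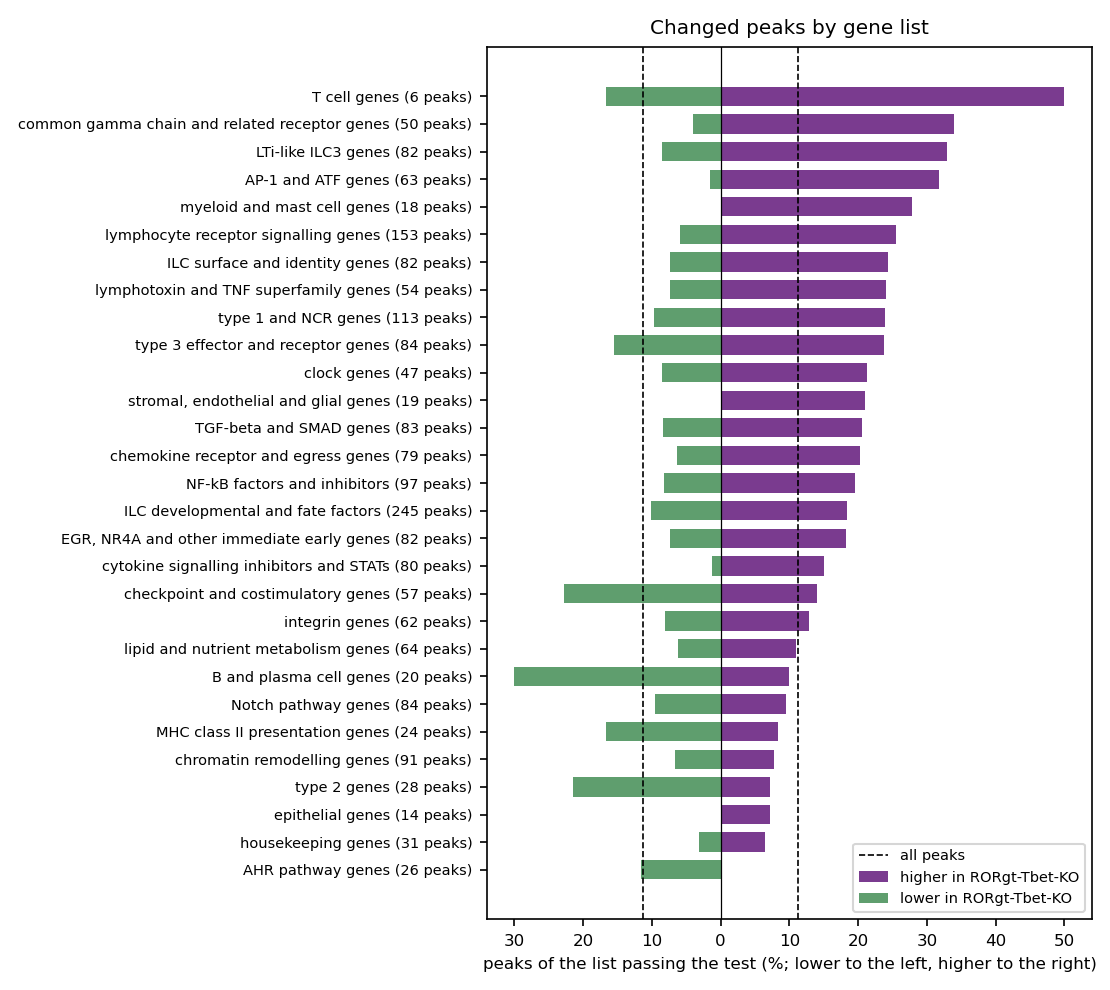
Percent of the peaks of each gene list that were higher (to the right) or lower (to the left) in RORgt-Tbet-KO than in Control, beside the share over all peaks (11.3% each way). The common gamma chain and related receptor, LTi-like and AP-1 lists reach furthest to the right, at 34.0%, 32.9% and 31.7% of their peaks apart from the T cell list of 6 peaks.

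Markers of other cell types were summed in the same way, over 6 to 12 peaks a type against 58 for the innate lymphoid markers, so the sums of different types are not on one footing. Of 9 T cell markers 4 had a peak, with 481 to 550 summed scaled reads in RORgt-Tbet-KO and 344 to 366 in Control, and the T cell list had 3 of 6 peaks higher and 1 lower. Of 7 B cell markers 3 had a peak, with 721 to 846 summed reads in RORgt-Tbet-KO and 1059 to 1148 in Control, and the B and plasma cell list had 2 of 20 peaks higher and 6 lower (none and 3 lower without RORgt-Tbet-KO replicate 1 or 2). Epithelial markers (5 of 6 with a peak, none at Vil1) summed to 778 to 839 in RORgt-Tbet-KO and 540 to 600 in Control, and stromal ones (2 of 5 with a peak, none at Col1a1, Col3a1 and Cdh5) to 674 to 693 in RORgt-Tbet-KO and 403 to 489 in Control. Myeloid and mast cell markers (5 of 7, none at Lyz2 and Csf1r) summed to 588 to 590 in RORgt-Tbet-KO and 536 to 761 in Control. The wider lists had 5 of 18 myeloid, 1 of 14 epithelial and 4 of 19 stromal peaks higher and none lower, and genes of ILC surface identity 20 of 82 higher and 6 lower. Over all peaks 11.3% were called each way. The peak nearest to Vwf, an endothelial gene, read 6.39 and 6.43 in RORgt-Tbet-KO against 3.83, 3.83 and 3.85 in Control (2.57 ± 0.31, limma, adjusted p = 1.18e-06). At Pecam1, which endothelium and leukocytes both use, the values were 7.95 and 7.97 in RORgt-Tbet-KO against 6.30, 6.35 and 6.07 in Control (1.72 ± 0.23, adjusted p = 4.88e-06). The part of other cell types in the gene groups above was not tested.

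Some genes had several changed peaks in 1 direction. With predicted genes (names of the Gm, Rik and LOC kinds) left out, 12530 genes had a peak. Of these, 90 had 4 or more changed peaks that were all higher and 60 had 4 or more that were all lower. Prex1, an activator of the GTPase Rac, had 10 of 17 peaks higher and none lower, by 0.78 to 2.25, and the clearest of them, at chr2:166708223-166708799, read 8.0 and 8.28 in RORgt-Tbet-KO against 6.37, 6.18 and 6.58 in Control (1.76 ± 0.22, limma, adjusted p = 1.27e-06). Grap2, an adaptor of antigen and NK receptor signalling, had 8 of 9 higher, and Irak2, a kinase below the IL-1 and IL-18 receptors, 8 of 12. Neither Grap2 nor Irak2 had a call in RORgt-KO against Control, but a call in 1 comparison and none in another is no test of their difference. Read directly against RORgt-KO, none of the 12 Irak2 peaks was called and 2 Grap2 peaks were higher. The first of these Grap2 peaks stood at 6.91 and 7.06 in RORgt-Tbet-KO, 5.93 and 5.24 in RORgt-KO and 5.33, 5.37 and 5.68 in Control (1.40 from RORgt-KO, limma, adjusted p = 0.0159). That peak was called against RORgt-KO in 11 of 16 other settings. Ppm1h, a phosphatase gene, had 9 of 22 higher and none lower. Without RORgt-Tbet-KO replicate 1 the higher peaks numbered 6 at Prex1, 5 at Grap2, 3 at Irak2 and 5 at Ppm1h, and without replicate 2 they numbered 4, 6, 3 and 3; without Control replicate 2 they were 9, 6, 4 and 8.

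Genes with several losses included Fam155a and Fhit. Fam155a, whose product belongs to the NALCN sodium channel complex, had 9 of 12 peaks lower, by -0.67 to -5.01, and Fhit, a gene at a common fragile site, had 7 of 12. At Fhit a peak had 3.23 and 3.65 in RORgt-Tbet-KO against 6.82, 7.03 and 6.46 in Control (-3.32 ± 0.40, limma, adjusted p = 9.25e-07). Each library of one genotype was far from those of the other at that site. Cdh10 and Sncaip had 6 of 6 peaks lower. Sfi1, with 6 of 23 lower, has near-identical copies in the mouse genome and is uncertain. Leaving out RORgt-Tbet-KO replicate 1 or 2 left 3 and 3 lower peaks at Fam155a and 4 and 5 at Fhit, and leaving out Control replicate 1 or 2 left 5 and 3 at Fam155a.

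**Figure D5:**
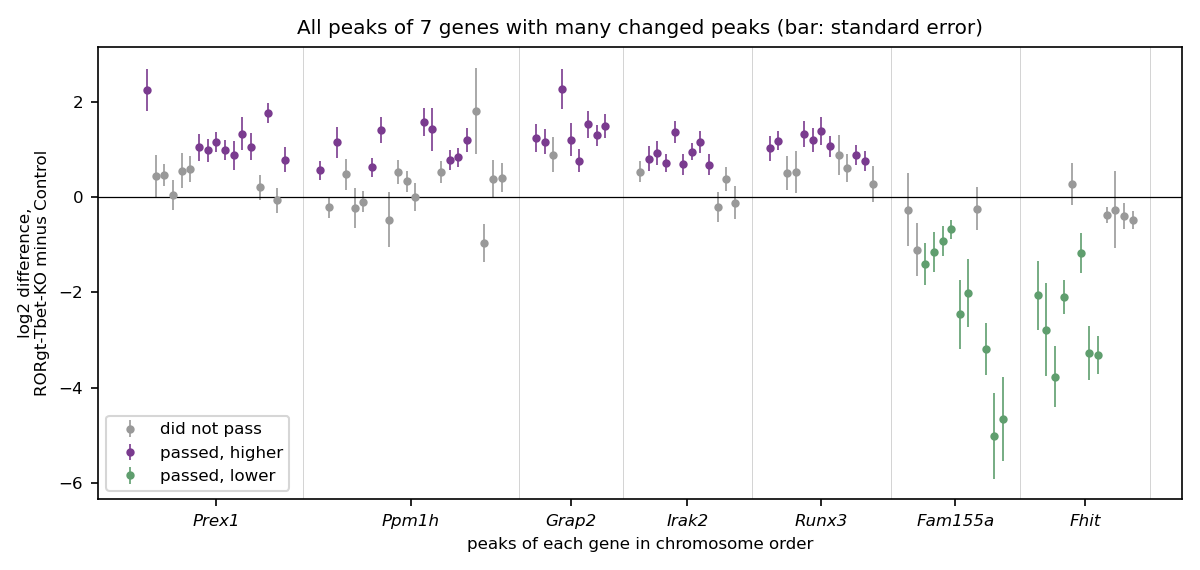
Log2 difference of RORgt-Tbet-KO minus Control (vertical axis, bars: SE) for every peak of 7 genes with many changed peaks, in chromosome order within each gene (horizontal axis). Peaks of Prex1, Grap2, Irak2 and Runx3 lie mostly above 0, and those of Fam155a and Fhit mostly below it, down to -5.01 at Fam155a.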

How the data were processed

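ATAC-seq libraries were trimmed with Trim Galore 0.62, aligned to GRCm38 with Bowtie2 2.3.5.1 and handled with SAMtools and MACS2, per the submitters' processing notes. The values deposited by the authors are log2 scaled read counts for 1 set of peaks common to all 10 libraries; the sources used here do not give the origin of the scaling factor. Read back as whole multiples of 1 step per library, every value came out whole within 0.01 of a read, with empty peaks at 0.9 of a step. Depth limits the precision at weak peaks, and counts of reads are not counts of cells or molecules.

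From these values limma 3.58.1 (R 4.3.3) fitted 4 group means to all 10 libraries with a mean-variance trend, and p-values were adjusted by Benjamini-Hochberg over 36251 peaks; the 11 peaks on Y were left out. Nothing in the labels ties replicates to separate animals beyond the pooling, so p-values measure the spread between these libraries. Peaks took the nearest protein-coding RefSeq gene within 50 kb, which need not be the gene they act on; antisense or overlapping genes cannot be told apart. Promoter windows were matched by gene symbol. Tables were handled with pandas 2.3.3 and numpy 2.4.6 in Python 3.11.15. The test was checked on simulated data in which 200 of 36251 peaks were changed, with the same spread for all peaks. There it recovered 48.5% of 2-fold and 94.5% of 4-fold changes. In the data 8189 peaks were called, and the adjusted threshold depends on how many peaks change. These shares therefore do not give the recovery in the data. A peak without a call can still differ by 2-fold.

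The named peaks are those of the deleted genes, the 10 largest differences each way with libraries apart and a level above the median, the 5 largest per place (3 beyond 50 kb), the best peak of up to 4 genes per list, and the genes with most changed peaks. The members, the 29 lists (397 of 455 genes with a peak) and this rule were chosen with earlier results of these data known. Other peaks and loci given, and the promoters printed, were chosen after their values were seen. Some peaks the rule names are not reported here. The alternatives tried were other scalings, filters, models and thresholds, reads thinned to equal depth, a replicate block and leaving out each library.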

Additional observations from a re-analysis of the deposited data

How the results depend on the processing

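Directions were stable and counts were not. In RORgt-Tbet-KO against Control, where 8189 peaks were called, TMM scaling gave 8230, quantile normalization 8145, library-size scaling with 2 added gave 8624, thinned reads 7481, the same scaling without thinning (chosen after seeing the data) 8346, the libraries of the 2 groups alone 9027 and voom 10329. Library weights moved the counts to 12468, with 6282 higher and 6186 lower, a fit without the mean-variance trend gave 5783 with 2565 higher, a test against a 1.5-fold change gave 1973, with 747 higher and 1226 lower, and removing the lowest 25% of peaks left 2674 lower. Higher peaks were 49.98% of the calls, but 37.9% against a 1.5-fold change and 57.2% without the lowest 25%. With single libraries left out there were 3359 to 8918 calls, 1556 to 4416 higher and 1803 to 4502 lower. Against RORgt-KO, where 415 peaks were called, library weights gave 3148, no trend 95, the 2 groups alone 3341, the 1.5-fold test 78, voom 664, and leaving out single libraries 91 to 204. The replicate block gave 10130 calls against Control (5077 higher, 5053 lower) and 666 against RORgt-KO; same-numbered libraries of the 4 genotypes deviated together at correlations of -0.1212 to 0.1431, with 1 pair above 0.1, so the libraries were taken to share only a number. Of the 291 named peaks under 17 settings, 463 of 4906 values lost the threshold and 0 changed direction, and 183 peaks kept it in every setting but the 1.5-fold test. The causes of these shifts were not tested. At the median peak of 39 reads in the shallowest Control library, small differences were not detectable.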
